A study of Mus musculus with 6 samples.

Results

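The 10 genes described here encode immediate early products that cells switch on within minutes of a signal. They are the 3 NR4A orphan nuclear receptors Nr4a1, Nr4a2 and Nr4a3, the kinase Sik1, the AP-1 subunits Fosb, Fos and Jun, the small GTPase Gem, the growth factor Areg and the phosphatase Dusp1. They were taken by symbol from the 33696 genes of the count matrices, and all 10 symbols were found. Their transcripts were counted in cells sorted from the Achilles tendon of Gli1-CreERT2; Ai9 mice that had received tamoxifen, either uninjured or 7 or 21 days after tenotomy (7 dpi and 21 dpi). At each time, 1 library was made from Gli1+ and 1 from Gli1- cells, so there were 6 libraries, 1 per condition. Each library held cells pooled from several mice without a record of which cell came from which mouse. The Ai9 reporter marks cells in which Cre driven by Gli1 was active at tamoxifen, together with their progeny, so Gli1+ names a lineage and not the present level of the Gli1 transcript. All 6 libraries carried the Cre driver and the reporter and came from mice given tamoxifen. No difference between conditions could be tested with 1 library each, and every interval below covers counting error only.

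The study asked about the GNAS and protein kinase A pathway in Gli1+ cells of the tendon. GNAS encodes the stimulatory G protein subunit that couples receptors to adenylyl cyclase. Cyclic AMP releases the catalytic subunits of protein kinase A, which phosphorylate the transcription factor CREB at cyclic AMP response elements (CRE) in promoters, and CRTC proteins join CREB there as coactivators. The NR4A genes, Sik1, Fosb, Gem, Areg and Dusp1 are induced this way in many tissues, and Sik1 in turn phosphorylates CRTC proteins and so limits the response. None of them answers to CREB alone, because serum, cytokines and antigen receptors induce them too. Fos and Jun are also switched on while tissue is digested into single cells, and they stand beside the other members here as a sign of dissociation. They do not separate digestion from other signals, and whether the other members rose during digestion too was not tested.

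The promoters were searched for the letters of a CRE in the 250 bases before each start. RefSeq windows on GRCm38.p6 were found for 8 of the 10 genes. The full palindrome TGACGTCA, searched on both strands, was present in 2 of the 8, Areg and Dusp1, and in 1.55% of all 32851 windows. The shorter letters TGACG, which also lie inside the palindrome, were present on one or the other strand in 7 of the 8 and in 17.8% of all windows. The AP-1 letters TGANTCA were in 0 of the 8 and in 6.75% of all windows, and the CArG box of the serum response element was in 0 of the 8 and in 1.47%. Below are the 3 NR4A promoters, each with 4 copies of the short letters, the promoters of Areg and Dusp1 with the palindrome, and that of Fos for comparison. Each is written 5′ to 3′ on the gene's strand and ends at the base before the start, and capitals mark TGACG or its reverse complement CGTCA, which run together where they form the palindrome.
Nr4a1 (chr15:101266596-101266845, plus strand): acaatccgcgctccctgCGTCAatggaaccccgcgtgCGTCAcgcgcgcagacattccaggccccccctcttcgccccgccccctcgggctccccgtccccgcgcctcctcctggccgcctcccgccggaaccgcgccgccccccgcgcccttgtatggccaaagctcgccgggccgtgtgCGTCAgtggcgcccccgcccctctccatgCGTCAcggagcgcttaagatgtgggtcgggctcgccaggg
Nr4a2 (chr2:57124004-57124253, minus strand): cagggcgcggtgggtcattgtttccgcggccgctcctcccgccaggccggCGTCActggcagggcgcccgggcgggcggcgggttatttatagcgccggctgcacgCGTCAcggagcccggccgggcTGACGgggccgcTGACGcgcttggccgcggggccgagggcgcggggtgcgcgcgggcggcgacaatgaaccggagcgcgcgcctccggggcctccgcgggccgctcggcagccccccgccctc
Nr4a3 (chr4:48045055-48045304, plus strand): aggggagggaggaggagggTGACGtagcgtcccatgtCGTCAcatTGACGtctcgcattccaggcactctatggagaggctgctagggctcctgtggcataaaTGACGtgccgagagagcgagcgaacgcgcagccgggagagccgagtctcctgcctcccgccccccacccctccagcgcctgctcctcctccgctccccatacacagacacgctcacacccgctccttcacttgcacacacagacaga
Areg (chr5:91139349-91139598, plus strand): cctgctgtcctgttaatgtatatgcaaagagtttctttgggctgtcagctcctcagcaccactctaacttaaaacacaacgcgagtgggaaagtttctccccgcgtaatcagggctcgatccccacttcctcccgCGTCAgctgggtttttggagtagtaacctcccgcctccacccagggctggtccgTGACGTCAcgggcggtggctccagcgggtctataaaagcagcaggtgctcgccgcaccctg
Dusp1 (chr17:26508473-26508722, minus strand): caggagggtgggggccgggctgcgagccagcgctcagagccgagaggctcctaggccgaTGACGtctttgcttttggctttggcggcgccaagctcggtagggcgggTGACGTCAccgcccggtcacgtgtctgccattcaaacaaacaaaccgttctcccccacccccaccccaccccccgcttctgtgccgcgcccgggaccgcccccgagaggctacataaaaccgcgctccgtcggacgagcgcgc
Fos (chr12:85473640-85473889, plus strand): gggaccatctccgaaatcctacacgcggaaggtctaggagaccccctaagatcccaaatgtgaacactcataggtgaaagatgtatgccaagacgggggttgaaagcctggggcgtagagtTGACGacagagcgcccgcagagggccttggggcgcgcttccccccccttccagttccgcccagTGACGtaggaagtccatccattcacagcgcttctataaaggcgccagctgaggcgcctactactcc
The palindrome lay 61 to 54 bases before the start of Areg and 143 to 136 bases before that of Dusp1. Fos held TGACG at 129 to 125 and at 66 to 62 bases, Fosb held 1 copy at 60 to 56 bases, and Jun held 0. A match is a run of letters and was not measured to bind anything in these cells. Positions farther from the start and variants of these letters were not searched, so 0 matches does not show that a site is absent.

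After the filters, 7057 to 10882 cells and 53564928 to 107887022 UMIs (unique molecular identifiers, 1 per captured transcript) remained per library. Median depth ranged from 4297 UMIs per cell in the uninjured Gli1- library to 9775 in the Gli1- library at 7 dpi, and 159 to 314 barcodes of a library also occurred in another. Clusters named from marker genes were grouped into classes, and the mesenchymal-like class (Col1a1, Col1a2, Col3a1, Dcn, Lum, Pdgfra) held 2250 to 8018 cells per library. The labels call the cells tendon cells, but blood endothelial-like, mural-like, Schwann-like and epidermal-like cells were also found by their markers. A level is given as CPM, the UMIs of a gene per 1000000 UMIs of the cells summed. Such sums cannot tell fewer cells with a transcript from less of it per cell. The Gli1 transcript was not higher in Gli1+ than in Gli1- mesenchymal-like cells at any time. It stood at 9.37 against 9.87 CPM uninjured, 1.92 against 2.69 at 7 dpi and 4.06 against 4.72 at 21 dpi. The uninjured Gli1+ library stood apart, because 53.1% of its cells lay in clusters with Ptprc (CD45) at 100 CPM or more and none did in the other 5 libraries. The libraries also went against the label that the mice were of equal sex distribution. Cells with Xist UMIs and no Y-linked UMIs made up 68.7% of the uninjured Gli1+ library and 90.5% to 92.7% of those at 21 dpi, but 0% to 0.0108% of the uninjured Gli1- library and of both at 7 dpi. Among uninjured Gli1+ mesenchymal-like cells, the 1372 with Xist and the 525 with Y-linked UMIs alone differed in the members by log2 -0.28 (Nr4a2) to 0.28 (Areg). Cntn5, a neuronal adhesion gene, was at 173 to 654 CPM in the libraries without Xist and at 0.387 to 1.80 CPM in the other 3.

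Among the NR4A receptors, which act as transcription factors without a known hormone, Nr4a2 differed most between conditions in mesenchymal-like cells. Nr4a2 stood at 149 (144 to 154) CPM in uninjured Gli1+ cells, 122 at 7 dpi and 248 at 21 dpi. Its Gli1- levels were 20.5 (19.1 to 22.0) CPM uninjured, 106 at 7 dpi and 245 at 21 dpi. Among kept cells the uninjured Gli1- library was thus the one low library. After injury the sorts lay close together in the class as a whole, though not in each part of it. Barcodes dropped by the filters or as likely doublets held 166 CPM of Nr4a2 in the uninjured Gli1- library, where kept cells of all classes held 49.2. In the other libraries dropped barcodes held 114 to 285 CPM and kept cells 103 to 217. The log2 ratio of Gli1+ over Gli1- was 2.86 (2.75 to 2.98) without injury, a 7.28-fold higher level that exceeded the ratio of 98.7% of all genes. It was 0.20 at 7 dpi and 0.02 at 21 dpi. Under the alternatives the ratio without injury ranged from 1.99 to 2.86. Over time in Gli1- cells the ratio of the class to the uninjured library was 2.37 (2.26 to 2.48) at 7 dpi, 5.17-fold higher. At 21 dpi it was 3.58 (3.48 to 3.69), 12.0-fold higher. These ratios ranged from 1.58 to 2.46 and from 2.80 to 3.75 under the alternatives. Within the clusters that held most uninjured Gli1- cells, led by Grm8, by C7 and Gdf10, and by Dpp4, the change was smaller. Nr4a2 there stood at 13.8, 31.8 and 14.7 CPM uninjured, 18.4, 25.6 and 19.2 at 7 dpi and 26.3, 66.5 and 35.3 at 21 dpi. In Gli1+ cells the ratio of the class was -0.29 at 7 dpi, with a sign that changed under 1 alternative, and 0.73 (0.68 to 0.79) at 21 dpi. With cells of 1 sex alone on both sides, the ratios were 3.02 for the uninjured sorts, 2.45 for Gli1- cells at 7 dpi and 0.86 for Gli1+ cells at 21 dpi. Gli1- cells at 21 dpi could not be matched by sex, as the uninjured Gli1- library held 0 cells with Xist alone.

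Nr4a1, also called Nur77, was lower at 7 dpi than in the uninjured library of the same sort. Mesenchymal-like Gli1+ cells held 234 CPM uninjured, 133 at 7 dpi and 198 at 21 dpi, and Gli1- cells held 259, 134 and 178. The log2 ratio at 7 dpi was -0.81 (-0.86 to -0.76) for Gli1+ cells, and for Gli1- cells it was -0.96 (-0.99 to -0.92). At 21 dpi it was -0.24 and -0.54, and under TMM or median-of-ratios scaling the Gli1+ value at 21 dpi turned positive. When Gli1+ cells were chosen by marker genes without clusters, the 7 dpi value was also positive. The sorts differed in Nr4a1 by -0.15 to 0.15 at all 3 times, though 1 alternative took the 7 dpi value to 1.13, past 2-fold.

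Nr4a3, also called Nor1, was measured in mesenchymal-like cells at a higher level in the uninjured Gli1+ library than in the other 5. It stood at 86.3 CPM there, against 51.0 in uninjured Gli1- cells and 46.1, 46.2, 49.4 and 53.6 CPM in the Gli1+ and Gli1- libraries of 7 dpi and then of 21 dpi. The log2 ratio was 0.76 (0.67 to 0.85) between the uninjured sorts, -0.91 and -0.81 over time in Gli1+ cells, and -0.14 and 0.07 in Gli1- cells. Lymphocyte transcripts moved with this: the summed CPM of 6 T cell markers was 30.8 in the uninjured Gli1+ mesenchymal-like cells and 0.472 to 5.97 in the other 5 libraries. Of these markers, Cd3e stood at 2.72 CPM there and at 0 to 0.0278 CPM in the mesenchymal-like cells of the other libraries. T cell-like cells of that library held 580.4 CPM of Nr4a3, and the part of the T cell transcripts in the mesenchymal value was not tested.

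**Figure D1:**
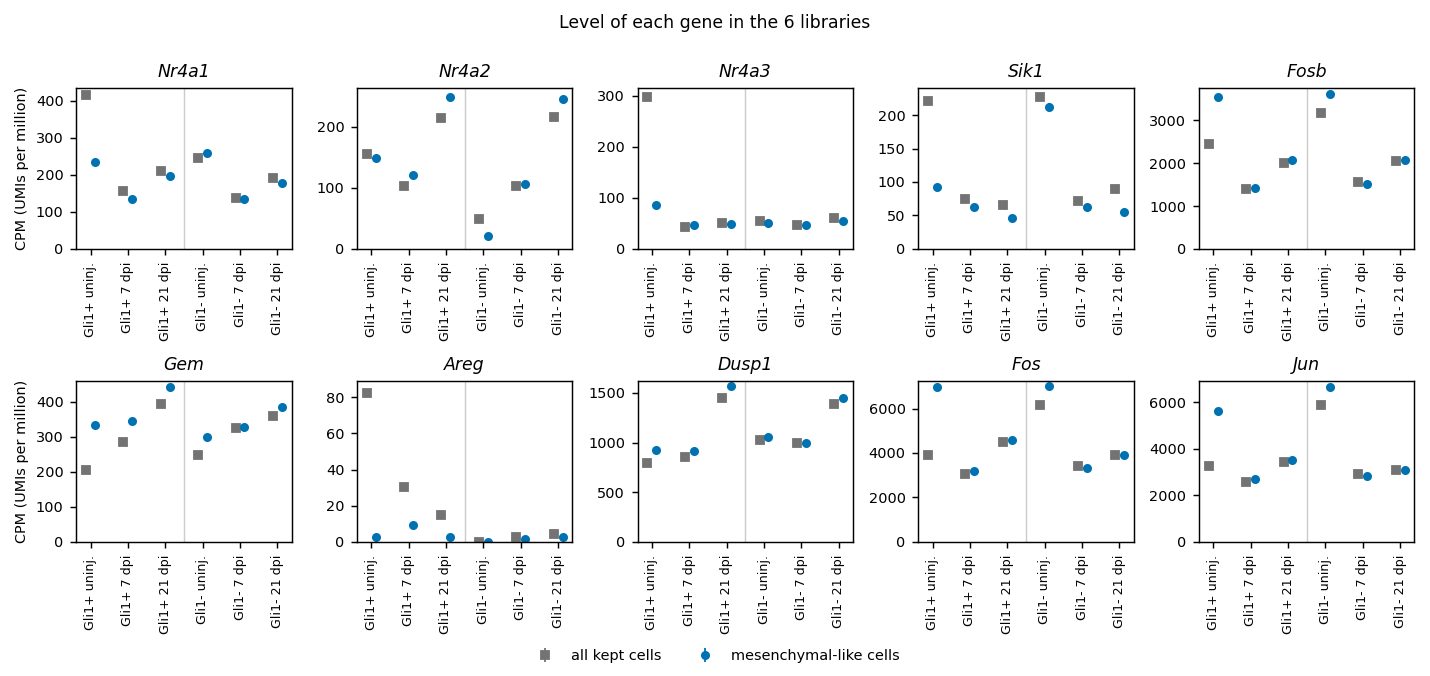
Level of each gene (CPM, linear axis from 0) in the 6 libraries, Gli1+ left of the grey line and Gli1- right of it; grey squares sum all kept cells, blue circles mesenchymal-like cells, and bars are 95% counting intervals. Nr4a2 in mesenchymal-like cells is low in the uninjured Gli1- library alone (20.5 CPM), and squares and circles part most for Nr4a3, Sik1 and Areg in uninjured Gli1+ cells.

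Sik1, a salt-inducible kinase, was lower after injury in the mesenchymal-like class of both sorts, though not at 21 dpi within the Gli1+ clusters followed below. In Gli1- cells it stood at 213 CPM uninjured, 63.3 at 7 dpi and 54.6 at 21 dpi. In Gli1+ cells it stood at 92.0, 62.2 and 46.4 CPM. Both sorts reached similar levels after injury, and the uninjured Gli1- cells were the high library. Blood endothelial markers moved with this, with a summed level of 115 CPM in those mesenchymal-like cells and 11.4 to 48.6 in the other libraries. The part of endothelial transcripts in the Sik1 value was not tested. The log2 ratio was -1.75 (-1.80 to -1.70) and -1.96 (-2.02 to -1.91) in Gli1- cells, 3.36-fold and 3.89-fold lower. In Gli1+ cells it was -0.57 and -0.99, and the 7 dpi value turned positive with cells chosen by markers without clusters. Between uninjured sorts Sik1 was 2.31-fold lower in Gli1+ cells, with a log2 ratio of -1.21 (-1.28 to -1.14), and it was -1.22 among cells with Y-linked UMIs alone. Its relatives Sik2 and Sik3 ranged from 68.8 to 106 CPM and from 250 to 353 CPM over the 6 libraries, with 0 of these 2 genes past 2-fold in any comparison of mesenchymal-like cells.

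The AP-1 subunits, which pair into dimers that bind AP-1 sites, were highest in the uninjured libraries in mesenchymal-like cells, while Fos and Jun, but not Fosb, were highest at 21 dpi in whole Gli1+ libraries. Fos stood at 6954 CPM in uninjured Gli1+ mesenchymal-like cells, 3209 at 7 dpi and 4596 at 21 dpi, and at 7008, 3305 and 3895 in Gli1- cells. Jun followed with 5639, 2720.2 and 3515 CPM for Gli1+ cells and 6681, 2834 and 3106 for the Gli1- ones. Fosb, a relative of Fos, stood at 3552, 1412 and 2074 CPM and at 3621, 1523 and 2070.5. Over the whole class, each of the 3 genes in both sorts was highest without injury, lowest at 7 dpi and in between at 21 dpi. Within clusters this order did not always hold, as given below. No alternative changed the sign of the class ratios of these genes to the uninjured library, though several took Fos and Jun under 2-fold. The log2 ratio at 7 dpi lay between -1.33 (Fosb) and -1.05 (Jun) in Gli1+ cells and between -1.25 (Fosb) and -1.08 (Fos) in Gli1- cells. At 21 dpi it lay between -0.78 and -0.60 in Gli1+ cells and between -1.11 and -0.81 in Gli1- cells. The uninjured sorts differed by -0.01 in Fos, -0.03 in Fosb and -0.24 in Jun.

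Gem, a GTPase of the RGK family that restrains calcium channels, varied little by comparison. It stood at 335, 344 and 442 CPM in Gli1+ mesenchymal-like cells at the 3 times and at 301, 329 and 386 in Gli1- cells. The largest of its log2 ratios over time was 0.40 (0.36 to 0.44) in Gli1+ cells at 21 dpi. Dusp1, which dephosphorylates MAP kinases, was highest at 21 dpi in the class of both sorts, though not in each cluster followed below. It stood at 929.5, 914 and 1571 CPM in Gli1+ cells and at 1051, 994 and 1448 in Gli1- cells. The log2 ratio at 21 dpi was 0.76 (0.74 to 0.78) in Gli1+ cells, above 91.0% of all genes, and 0.46 in Gli1- cells. At 7 dpi it was -0.02 and -0.08, and both signs changed under TMM scaling.

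Areg, the EGF receptor ligand amphiregulin, was nearly absent from mesenchymal-like cells. It stood at 2.67, 9.30 and 2.90 CPM in Gli1+ cells and at 0.0556 (2 UMIs), 1.51 and 2.83 CPM in Gli1- cells, which placed it under the 10 CPM set for the background in all 6 libraries. The log2 ratio was 1.80 (1.41 to 2.21) in Gli1+ cells and 4.76 (2.88 to 7.82) in Gli1- cells at 7 dpi, with the wide interval that 2 UMIs give. Epidermal transcripts moved with the Gli1+ value at 7 dpi, where mesenchymal-like cells held 675 CPM of Krt14 against 7.02 CPM in the uninjured library and 11.3 CPM in Gli1- cells at 7 dpi. In that library Areg counted 7.5 UMIs per 1000 Krt14 UMIs in epidermal-like cells, 13.8 in mesenchymal-like, 11.7 in blood endothelial-like and 10 in mural-like cells. The part of epidermal RNA in the mesenchymal Areg value was not tested. Epidermal-like cells held 74.1% of the Areg UMIs of the Gli1+ library at 7 dpi and 81.4% at 21 dpi.

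**Figure D2:**
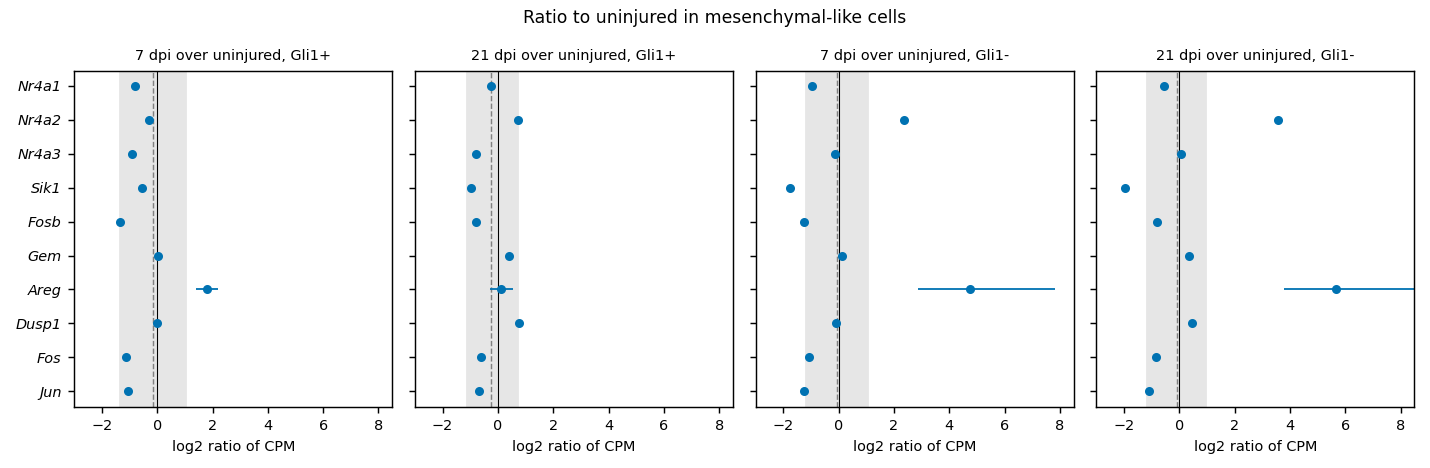
Log2 ratio of each gene in mesenchymal-like cells at 7 or 21 dpi over the uninjured library of the same sort, 1 panel per comparison, with 95% counting intervals; the grey band spans the 10th to 90th percentile of all genes with at least 10 CPM and the dashed line is their median. Nr4a2 lies right of the band in both Gli1- panels (2.37 and 3.58) and Sik1 left of it, and an interval of Areg runs past the axis at 21 dpi in Gli1- cells.

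Counted together in mesenchymal-like cells, 8 of 10 members were lower at 7 dpi in Gli1+ and 7 of 10 in Gli1- cells, each with a counting interval below 0, as were 50.9% and 47.4% of all genes. At 21 dpi 6 and 5 members were, against 56.5% and 49.9%. At 7 dpi, 3 of 10 were at least 2-fold lower in Gli1+ cells (Fosb, Fos, Jun), against 16.1% of all genes, and 4 of 10 in Gli1- cells (Sik1, Fosb, Fos, Jun), against 12.5%. At 21 dpi, 0 of 10 were in Gli1+ cells, against 12.1% of all genes, and 2 of 10 in Gli1- cells (Sik1, Jun), against 12.4%. At least 2-fold higher at 7 dpi were Areg in Gli1+ cells, against 10.9% of all genes, and Nr4a2 and Areg in Gli1- cells, against 11.1%. At 21 dpi 0 were higher in Gli1+ cells, against 5.59%, and Nr4a2 and Areg were in Gli1- cells, against 9.44%. Between the uninjured sorts, Nr4a2 and Areg were at least 2-fold higher in Gli1+ cells, against 7.05% of all genes, and Sik1 was lower, against 4.31%. At 7 dpi Areg alone was higher, against 1.11%, and 0 were lower, against 0.542%; at 21 dpi 0 of 10 were higher or lower, against 0.269% each way. Of the 10 members, 9 passed the 10 CPM filter of the background and Areg did not. The median log2 ratio of the members against that of all genes was -0.69 against -0.14 (7 dpi) and -0.42 against -0.24 (21 dpi) in Gli1+ cells, and -0.55 against -0.05 and -0.23 against -0.10 in Gli1- cells. TMM scaling would add 0.29 and 0.44 to the Gli1+ log2 ratios at 7 and 21 dpi, 0.09 and 0.17 to those of Gli1- cells, and -0.23 to that between the uninjured sorts. With it Nr4a2 and Dusp1 would pass 2-fold higher in Gli1+ cells at 21 dpi, at 1.18 and 1.20, while Fos and Jun would no longer be 2-fold lower at 7 dpi, at -0.83 and -0.76, which leaves 1 of 10. For Gli1- cells Fos at 7 dpi (-0.99) and Jun at 21 dpi (-0.93) would drop out. In Gli1+ cells chosen by markers without clusters 0 of 10 were 2-fold lower at 7 dpi. The share of all genes was not counted with TMM or for cells chosen by markers.

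Relative to Fos, the members moved apart. Per 100 Fos UMIs in mesenchymal-like cells, Nr4a2 counted 2.15, 3.79 and 5.40 UMIs in the Gli1+ libraries at the 3 times and 0.293, 3.21 and 6.30 in the Gli1- libraries. Dusp1 counted 13.4, 28.5 and 34.2 with the Gli1+ sort and 15, 30.1 and 37.2 with the Gli1- sort, and Gem 4.81, 10.7 and 9.61 and then 4.29, 9.94 and 9.91. These 3 genes stood higher beside Fos after injury in both sorts. Nr4a1 ranged from 3.36 to 4.57 over the 6 libraries, Fosb from 44 to 53.2 and Jun from 76.5 to 95.3, so these stayed nearer to proportion with Fos. Sik1 counted 3.03 in uninjured Gli1- cells and no more than 1.94 in the other 5 libraries. How much of these levels arose during tissue digestion was not tested. The heat shock list that marks dissociation took 0.394% to 0.475% of mesenchymal-like UMIs over the 6 libraries.

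Shares of cells with a UMI were compared at equal depth. With each cell thinned to 2000 UMIs, Nr4a2 was found in 17.3% of uninjured Gli1+ mesenchymal-like cells, 17.4% at 7 dpi and 28.9% at 21 dpi, and in 3.84%, 13.8% and 27.6% of Gli1- cells. Without thinning these shares were, in the same order, 38.3%, 47.7%, 56.5%, 9.09%, 43.9% and 55.9%. The class with the least Nr4a2 in the uninjured Gli1+ library, epidermal-like cells, gave 2.78% thinned and 21.7% unthinned, at a median depth of 23102 UMIs against 8934.5 for the mesenchymal-like cells of that library. The uninjured Gli1- library held no such class in 50 or more cells, and its share of 3.84% had no blank of its own. Sik1 was found in 16.1%, 12.9% and 9.25% of Gli1+ and 32.7%, 13.1% and 11% of Gli1- thinned cells, and 45.2%, 40.6%, 27.9%, 60.8%, 45.4% and 33.1% without thinning, and no class served as a blank for this gene. Thinning left out 37 to 235 mesenchymal-like cells per library that held under 2000 UMIs.

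The mesenchymal-like class was not one population, and its clusters carried different levels. In uninjured Gli1+ cells, Nr4a2 stood at 95.4 CPM in the stem cell-like cluster led by Inmt and C7 (1389 cells) and at 218 CPM in the tenocyte-like cluster led by Ptprt and Col22a1 (718 cells). Most uninjured Gli1- mesenchymal-like cells lay in 3 stem cell-like clusters, led by Grm8, by C7 and Gdf10, and by Dpp4, at 13.8, 31.8 and 14.7 CPM. With the clustering used here no tenocyte-like cluster was named in the Gli1- libraries, where tenocyte genes and muscle fibre genes shared a mixed cluster left out of the class. That mixed cluster held 133 CPM of Nr4a2 uninjured, 111 at 7 dpi and 193 at 21 dpi (211, 242 and 209 cells). With all 6 libraries clustered together, a tenocyte-like cluster led by Ptx4 and Col22a1 held 201 uninjured Gli1- cells beside 702 uninjured Gli1+ cells. At a finer clustering a Gli1- cluster of 2014 cells, led by Cilp2, Tnmd and Kera, was named tenocyte-like. Between the uninjured sorts Nr4a2 was higher in Gli1+ cells in the stem cell-like clusters alone, by 2.36 (2.22 to 2.495) on the log2 scale (1401 against 5396 cells), beside 2.86 in the whole class and 2.58 in the class from all 6 libraries clustered together. In these clusters it was also at least 2-fold higher in Gli1+ cells at 7 dpi, but not at 21 dpi. The main stem cell-like clusters of 7 dpi held 140 CPM in Gli1+ (4284 cells) and 51.8 in Gli1- cells (3689 cells). Clusters were drawn per sort and need not match. At 21 dpi the tenocyte-like clusters of the Gli1+ library held 352 and 322 CPM and its stem cell-like clusters 119 and 92.4. In the clustering used here, a larger Gli1- cluster led by Cilp2, Hpse2 and Sfrp4 was not named tenocyte-like. Its 4655 cells of 21 dpi held 253 CPM of Nr4a2, and the cluster led by Tnn and Tnc, with 2762 cells from 7 dpi, held 154. Most mesenchymal-like cells of 7 dpi and 21 dpi lay in clusters with few uninjured cells, and a change of cell state and a library's own shift cannot be told apart there.

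**Figure D3:**
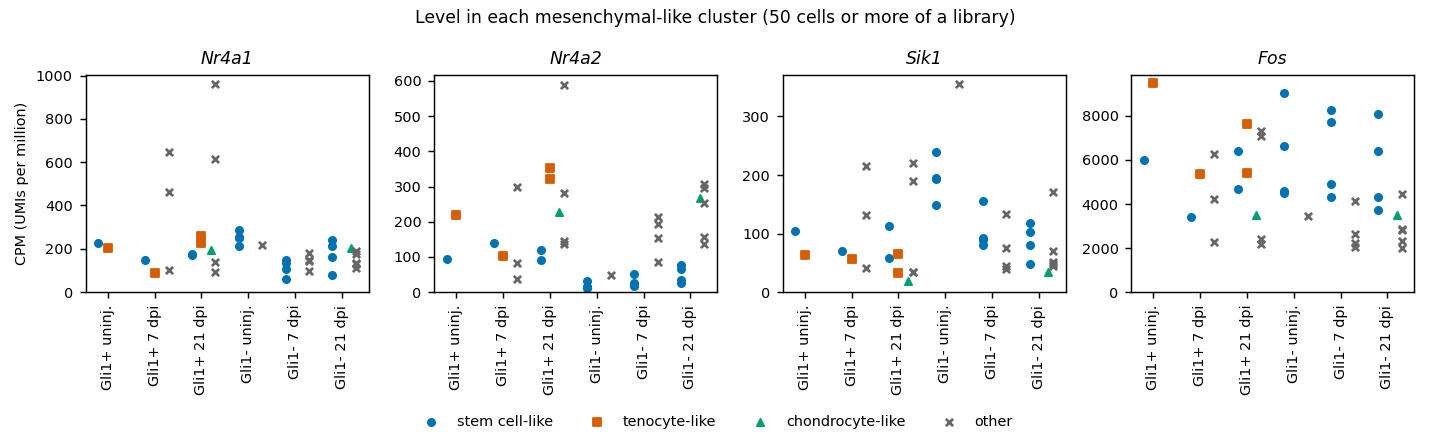
Level (CPM) of Nr4a2, Nr4a1, Sik1 and Fos in each mesenchymal-like cluster with at least 50 cells of a library, 1 point per cluster and library, marked by subclass. Nr4a2 ranges from 11.3 CPM in a stem cell-like cluster of the uninjured Gli1- library to 589 CPM in a cluster of 93 cells at 21 dpi.

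Clusters that held 50 or more cells at several times gave a comparison within a cluster. In the Gli1- libraries 5 mesenchymal-like clusters did so at all 3 times, 4 of them stem cell-like (led by Grm8, by C7 and Gdf10, by Dpp4, and by Klk1 and Pgr) and 1 led by Egfros. Sik1 was lower at 7 dpi and at 21 dpi than uninjured in all 5 of these clusters. In that order it went from 239 to 88.9 and 119, from 194 to 156 and 103, from 196 to 79.9 and 48.2, from 149 to 92.0 and 79.7, and from 355 to 134 and 170.2 CPM. Nr4a2 was higher at 21 dpi in all 5 and at 7 dpi in 4 of the 5. It went from 13.8 to 18.4 and 26.3, from 31.8 to 25.6 and 66.5, and from 14.7 to 19.2 and 35.3 CPM in the first 3. At 7 dpi these held 134, 122 and 248 cells, and no counting interval was made for single clusters. The small differences of these 3 at 7 dpi may thus lie within counting error. The differences were larger in the Klk1 and Pgr cluster, which held 65, 3689 and 172 cells and went from 11.3 to 51.8 and 76.9 CPM, and in the Egfros cluster, which went from 48.3 to 213 and 297 CPM. Dusp1 was highest at 21 dpi in the Grm8 cluster (1277, 1373 and 1422 CPM over time) and the Egfros cluster (562, 545 and 1158). It was highest at 7 dpi in the C7 and Gdf10 cluster, at 1054, 1268 and 1153 CPM. The same held in the Dpp4 cluster, at 675, 1227 and 741, and, by little, in the Klk1 and Pgr cluster, at 1369, 1373 and 1357. Fos was lower than uninjured at 21 dpi in all 5 and had no shared direction at 7 dpi, going from 9029 to 7737 and 8076, from 6628 to 8259.9 and 6403, from 4517 to 4889.9 and 3751, from 4604 to 4319.8 and 4312, and from 3452 to 2056 and 2838 CPM in the order given first. Fosb at 21 dpi was above uninjured in the Grm8 (5864 against 4834 CPM), C7 and Gdf10 (3850 against 3265) and Klk1 and Pgr clusters (2312 against 1923). It was below in the Dpp4 (2036 against 2109) and Egfros clusters (3729 against 5964). Jun at 21 dpi was above uninjured in the C7 and Gdf10 cluster alone, at 5670 against 5531 CPM. In Gli1+ cells, the Inmt and C7 cluster held 5994 CPM of Fos uninjured and 6414 at 21 dpi, and the Ptprt and Col22a1 cluster 9503 and 7636. Nr4a2 in that tenocyte-like cluster stood at 218 and 322 CPM, and in the Inmt and C7 cluster at 95.4 and 92.4. Sik1 was not lower at 21 dpi in either, at 62.8 and 66.0 CPM in the tenocyte-like and 104 and 114 in the Inmt and C7 cluster. Dusp1 was higher at 21 dpi in both, at 1116 and 1729.5 CPM and at 891 and 1155 CPM in the same order.

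The immune cells of the uninjured Gli1+ library carried much of its NR4A and Sik1 signal. Its 2992 T cell-like cells held 529.9 CPM of Nr4a1, 208 of Nr4a2, 580.4 of Nr4a3 and 358 of Sik1. Against mesenchymal-like cells of the same library, Nr4a3 was 6.73-fold and Sik1 3.89-fold higher, whereas Fos, at 830.0 CPM, was 8.38-fold lower. NR4A receptors are known to follow antigen receptor signals in T cells. T cell-like cells held 77.8% of the Nr4a3, 64.4% of the Sik1, 51.0% of the Nr4a1, 53.4% of the Nr4a2 and 75.6% of the Areg UMIs of that library, against 39.9% of all its UMIs. They held 8.51% of the Fos and 8.51% of the Jun UMIs. An unnamed cluster of 252 cells led by Ccdc184, Il13 and Klrg1 held 1292 CPM of Nr4a1 and 512 CPM of Areg. The 460 myeloid-like cells held 2132 CPM of Dusp1 but 170.4 of Nr4a1.

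**Figure D4:**
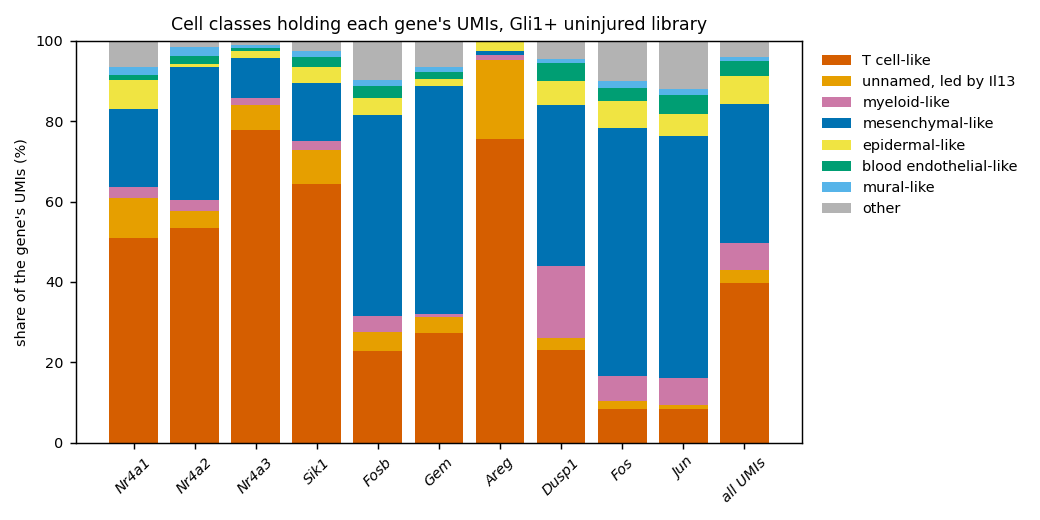
Share (%) of each gene's UMIs, and of all UMIs, that came from each cell class in the uninjured Gli1+ library, as stacked bars from 0 to 100. T cell-like cells hold 77.8% of the Nr4a3 UMIs and 8.51% of the Fos UMIs, against 39.9% of all UMIs.

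Summed over whole libraries, the same genes gave other ratios. In Gli1+ libraries Nr4a3 stood at 297 CPM uninjured, 43.7 at 7 dpi and 50.3 at 21 dpi, and Sik1 at 221, 74.3 and 65.0. At 7 dpi 4 of 10 members were at least 2-fold lower in the Gli1+ library (Nr4a1, Nr4a3, Sik1, Areg), against 21.2% of all genes, and at 21 dpi 3 of 10 were (Nr4a3, Sik1, Areg), against 20%. Without the Ptprc clusters none of the genes just named stayed past 2-fold lower. At 7 dpi Nr4a1 then had a log2 ratio of -0.94, Nr4a3 of -0.96, Sik1 of -0.56 and Areg of 2.38, and the 3 genes past 2-fold lower were Fosb (-1.26), Fos (-1.09) and Jun (-1.09), against 17.2% of all genes without those clusters. At 21 dpi 0 were, against 12.7%. Areg alone was then at least 2-fold higher, against 8.35% of all genes at 7 dpi and, with a ratio of 1.32, 4.66% at 21 dpi. Fos in whole Gli1+ libraries stood at 3888 CPM uninjured and 4494 at 21 dpi, and Jun at 3248 and 3416. Their log2 ratios of 0.21 and 0.07 turned to -0.54 and -0.68 without the Ptprc clusters. In Gli1- libraries, which held no such clusters, 3 of 10 were lower at 7 dpi (Sik1, Fosb, Jun), against 16% of all genes, and 1 at 21 dpi (Sik1), against 12.9%. Nr4a2 and Areg were at least 2-fold higher there at both times, against 9.56% and 7.46% of all genes, with Nr4a2 at 49.2, 103 and 217 CPM. With all deposited barcodes the log2 ratio of Nr4a2 at 7 dpi went from 1.07 to 0.47, under 2-fold. In the Gli1+ libraries 0 members were at least 2-fold higher, against 13.2% at 7 dpi and 9.67% at 21 dpi, though with TMM Gem and Dusp1 would pass 2-fold at 21 dpi, at 1.34 and 1.26.

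Small mesenchymal-like clusters held the highest levels of Nr4a1 in the class among Gli1+ cells of 7 and 21 dpi. The cluster led by Luzp2, Gatm and Msln held 647 CPM of Nr4a1 at 7 dpi and 959.6 at 21 dpi in Gli1+ cells (95 and 93 cells), with 299.8 and 589 CPM of Nr4a2. Its median depth was 0.422 of that of its libraries, and at the finer clustering it was left unnamed. The cluster led by Gpc5 and Nrg3 held 462 and 612 CPM of Nr4a1 (51 and 194 cells). Both were above the 147 CPM of the main stem cell-like cluster of 7 dpi, led by H19 and Klk1, and the 228 CPM of the main tenocyte-like cluster of 21 dpi, led by Eno3 and Matn4. The cluster led by Crabp1, Prss35 and Hmmr held 102 CPM of Nr4a1, 41.0 of Sik1, 604 of Dusp1 and 2263 of Fos in Gli1+ cells at 7 dpi. The cluster led by Saa3, Mmp10 and Il11, with genes of matrix breakdown, combined 283 CPM of Nr4a2 with 2185 CPM of Fos at 21 dpi, and its Gli1- counterpart, led by Saa3, Mmp10 and Grem1, combined 308 with 2019 CPM. In other clusters with high Nr4a2 at 21 dpi Fos was higher, as 589 CPM of Nr4a2 stood beside 7092 CPM of Fos in the Luzp2 cluster and 352 beside 5399 in the Eno3 cluster. Chondrocyte-like cells of 21 dpi held 227 CPM of Nr4a2 in the Gli1+ library (293 cells) and 268 in the Gli1- library (399 cells), with Sik1 at 18.6 and 33.8 CPM. The Gli1+ cluster was led by Bglap, Snorc, Ibsp and Col2a1, so bone genes were among its leading genes. With 20 components or with likely doublets kept, the matching Gli1+ cluster was named bone-like. Among the mesenchymal-like clusters of the Gli1+ library at 21 dpi, Gem was highest in the tenocyte-like ones, with 540.0 and 639 CPM in those led by Eno3 and by Ptprt, against 406 and 471 CPM in the stem cell-like ones.

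Vascular and nerve classes gave levels of their own. Mural-like cells, the pericytes and smooth muscle around vessels, held more Nr4a1 than mesenchymal-like cells in each of the 6 libraries. They stood at 732, 343 and 511 CPM of Nr4a1 in Gli1+ libraries (115, 169 and 545 cells) and at 516, 355 and 431 in Gli1- libraries (918, 496 and 1015 cells). Their Sik1 ran from 212 to 367 CPM and, unlike that of the mesenchymal-like class as a whole, was not lower at 21 dpi than uninjured in either sort. Nr4a2 in mural-like Gli1- cells stood at 157 CPM uninjured, 66.6 at 7 dpi and 168 at 21 dpi, but these cells changed cluster. In the cluster that held 673 of the 918 uninjured cells it went from 76.1 and 65.9 to 132 CPM, and in the one that held 894 of the 1015 cells at 21 dpi from 268 and 62.5 to 169. Blood endothelial-like cells of the Gli1- libraries held 73.4, 54.8 and 60.6 CPM of Nr4a2 and 305, 223 and 151 of Sik1. Schwann-like cells, seen in 50 or more cells in the Gli1- libraries, held 459.9, 302 and 684 CPM of Nr4a2 (234, 92 and 132 cells). Dusp1 in mural-like cells went from 757 and 941 to 1511 CPM with the Gli1+ sort and from 860.3 and 979 to 1464 with the Gli1- sort, whereas in blood endothelial-like cells it stayed between 875 and 1022 CPM in the 6 libraries. These cells changed cluster too, and within the 3 blood endothelial-like clusters of the Gli1- libraries Dusp1 was highest at 21 dpi, at 1163, 1242 and 1381 CPM over time in the first, 603, 754 and 984 in the second and 739.7, 764 and 791 in the third. The first held 2378 uninjured cells and 466 at 21 dpi, and the third 121 and 764. Epidermal-like cells held the least Nr4a2 of the named classes in the Gli1+ libraries, at 18.8, 22.9 and 23.9 CPM, and Areg at 25.4, 119 and 105. Each of these comparisons rests on 1 library per condition.

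**Figure D5:**
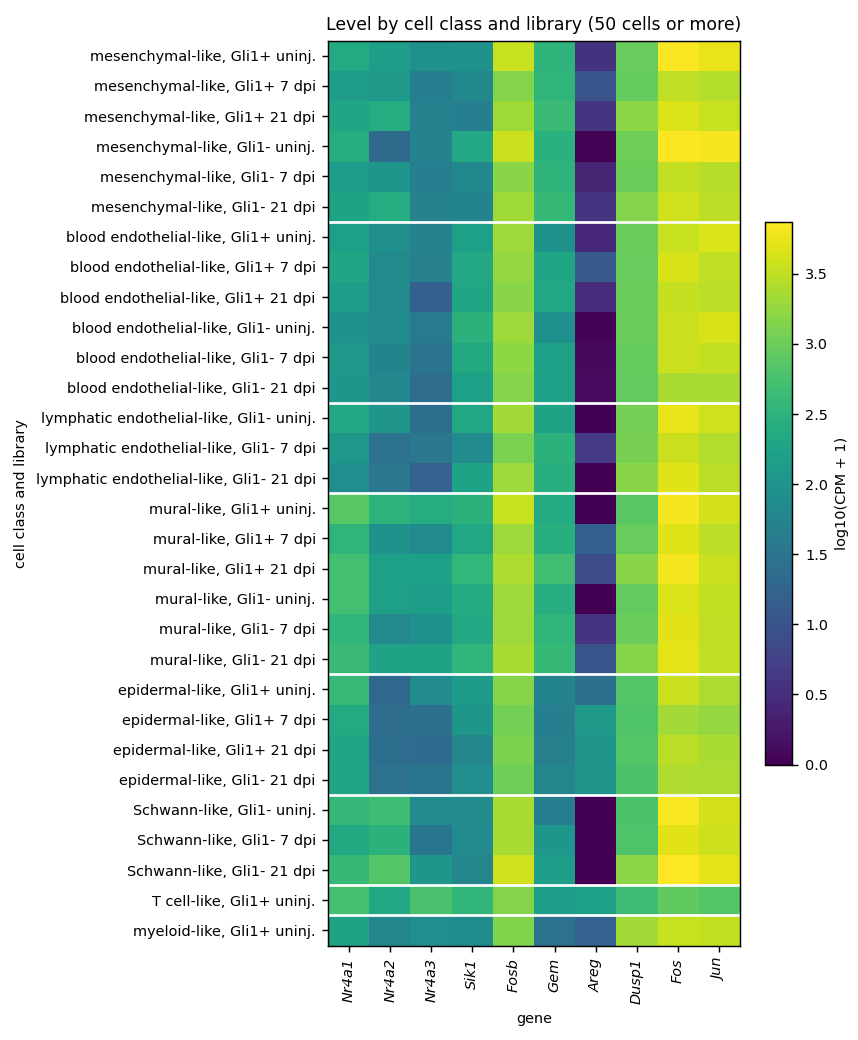
Level of the 10 genes (colour, log10 of CPM plus 1) in each class of at least 50 cells in each library, 1 row per class and library. T cell-like cells carry high Nr4a3 (580.4 CPM) with low Fos (830.0 CPM), and Areg is high in T cell-like and epidermal-like rows.

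Other genes of the pathway were read from lists. Among 8 further CREB targets, 7 were measured in mesenchymal-like cells, with 1 at least 2-fold lower and 2 higher in Gli1+ cells at 7 dpi, 0 and 2 at 21 dpi, 1 and 2 in Gli1- cells at 7 dpi, and 2 and 2 at 21 dpi. Over all genes 16.1%, 12.1%, 12.5% and 12.4% were lower and 10.9%, 5.59%, 11.1% and 9.44% higher in these 4 comparisons. The list's median log2 ratio was -0.19 there, -0.01 in Gli1+ cells at 21 dpi, 0.31 in Gli1- cells at 7 dpi and -0.47 at 21 dpi, beside the medians of all genes given above. Rgs2, which shortens G protein signals, had a pattern near that of Nr4a2, at 103.5, 51.0 and 167 CPM in Gli1+ cells and 6.92, 35.1 and 153 CPM in Gli1- cells. Pde4d, a phosphodiesterase that breaks down cyclic AMP, stood at 160, 378 and 575 CPM and at 87.8, 331 and 611 CPM. Pde4b, another phosphodiesterase of this kind, stood at 437, 277 and 396 CPM and at 545, 297 and 390 CPM. Ptgs2, a cyclooxygenase that starts prostaglandin synthesis, stood at 77.2, 290 and 157 CPM and at 215, 266 and 156 CPM. Of CREB and its 6 cofactors and relatives, 3 were at least 2-fold lower and 0 higher in Gli1+ cells at 7 dpi, and 2 lower and 0 higher in each of the other 3 comparisons over time. Of 6 or 7 measured genes, these stood beside 16.1% of all genes lower at 7 dpi and 12.1% at 21 dpi in Gli1+ cells, and 12.5% and 12.4% in Gli1- cells. The list's median log2 ratio came to -0.89 and -0.83 for the Gli1+ sort, against -0.14 and -0.24 over all genes, and to -0.60 and -0.66 for the Gli1- sort, against -0.05 and -0.10. Crtc3, one of the coactivators that Sik kinases restrain, stood at 114, 39.3 and 51.3 CPM with the Gli1+ sort and 125, 41.6 and 52.0 CPM with the Gli1- sort. Creb1 itself stood at 53.5, 35.6 and 30.1 CPM and at 48.1, 35.4 and 32.0 CPM.

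Other early and stress genes were read in the same way. Of 20 further immediate early genes, 5 were at least 2-fold lower and 0 higher in Gli1+ mesenchymal-like cells at 7 dpi, 3 and 0 at 21 dpi, 11 and 0 in Gli1- cells at 7 dpi, and 11 and 1 at 21 dpi. Over all genes 16.1%, 12.1%, 12.5% and 12.4% were lower in these 4 comparisons. The median log2 ratio of the list came to -0.39 and -0.37 for the Gli1+ sort and to -1.12 and -1.14 for the Gli1- sort, beside those same medians of all genes. Egr1 stood at 3273, 1239 and 1459 CPM in the Gli1+ libraries, beside 4356, 1393 and 1445 CPM in Gli1- cells, and Junb at 2701, 1220 and 1606 and at 5188, 1406 and 1404 CPM. Of the 10 heat shock genes that dissociation induces, 2 were lower and 1 higher in Gli1+ cells at 7 dpi and 0 either way at 21 dpi, with medians of 0.45 and -0.22, and in Gli1- cells 1 was lower and 1 higher and then 2 and 0, with medians of -0.15 and -0.35. Of 8 early NF-kappa B targets, which inflammatory signals induce, 1 was lower and 3 higher in Gli1+ cells at 7 dpi and 0 and 3 at 21 dpi, with medians of 0.67 and 0.65. In Gli1- cells 0 were lower and 2 higher at 7 dpi and 0 and 1 at 21 dpi, with medians of 0.52 and -0.08. Both lists stand beside the shares and medians of all genes given above. Among the NF-kappa B targets Ccl2, a monocyte attractant, stood at 105, 957 and 178 CPM with the Gli1+ sort and at 299, 908 and 199.8 CPM with the Gli1- sort. Among 7 DUSP genes beside Dusp1, 5 were measured, with 1 lower and 0 higher in Gli1+ cells at 7 dpi and in Gli1- cells at 21 dpi, and 0 either way in the other two comparisons. Of the RGK relatives of Gem, Rrad alone passed 10 CPM in Gli1+ cells at 7 dpi and stood at 83.5, 234 and 188 CPM there and at 62.8, 255 and 185 CPM in Gli1- cells. Among 7 EGF family genes, of which 3 were measured in Gli1+ cells at 7 dpi, Ereg stood at 3.26, 100 and 124 CPM in mesenchymal-like cells of the Gli1+ sort and at 1.92, 88.7 and 150 CPM in those of the Gli1- sort, so that this ligand was higher after injury in both sorts while Areg stayed under 10 CPM. The 5 measured housekeeping genes were not level either, with medians of 0.94 and 0.67 in Gli1+ cells at 7 and 21 dpi and of 0.79 and 0.42 in Gli1- cells, and Gapdh stood at 324, 1091 and 784 CPM in the Gli1+ libraries, beside 328, 1173 and 808 CPM in Gli1- cells.

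Across the 34 combinations of class and library, the patterns of the members differed from one another. The correlations describe log2 levels of points that share libraries and depth, so they carry no test. Pearson's r was 0.90 between Fos and Jun, 0.77 between Fosb and Fos and 0.79 between Nr4a1 and Nr4a3, but 0.22 between Nr4a1 and Fos, 0.22 between Nr4a2 and Fos and 0.01 between Sik1 and Fos. Among 12218 other genes, those most like Fos were Klf9 (0.883), Egr1 (0.869) and Cebpd (0.865), and the nearest to Jun was Egr1 (0.935). Nr4a3 lay nearest to Trpv2 (0.794) and Areg to Tnfrsf18 (0.941), Bcl11b (0.923) and Il17re (0.895), which are genes with high levels in lymphocytes. Nr4a2 lay nearest to Tmem184c (0.762), Nrn1 (0.761) and Ak5 (0.746), Nr4a1 to Slc2a3 (0.781), Sik1 to Mpp2 (0.770), Dusp1 to Grn (0.817) and Fosb to Abat (0.854).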

How the data were processed

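Cells from Achilles tendon were sorted into Gli1+ and Gli1- and sequenced as 3′ single-cell libraries. The authors deposited UMI counts per gene and barcode as filtered matrices. The submitters' notes name Cell Ranger 3.1.0, STAR and mm10, whereas the matrix headers name Cell Ranger 9.0.0, and which version made the files is not given in the sources used here. No coordinates came from the matrices.

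Barcodes with under 200 genes or under 1000 UMIs were dropped, as were those whose log10 gene number was under 0.7 of their log10 UMI number and those whose mitochondrial or hemoglobin share passed 5%. Scrublet scores removed 0.8% of barcodes per 1000 cells as likely doublets. Cells of each sort were clustered (scanpy 1.11.5, 2000 variable genes without the members, lists and markers, 30 components, 20 neighbors, Leiden resolution 0.5) and named where markers were raised. The naming thresholds were set after clusters had been seen. Counts were summed per library and class into CPM, with exact Poisson 95% intervals, and log2 ratios carry an interval from the binomial distribution of counts given their sum (scipy 1.17.1). A member counted where its ratio reached 2-fold, and the background is the same count over genes with at least 10 CPM in either library. Shares of cells carry exact binomial intervals. Correlations used classes of at least 50 cells, genes reaching 20 CPM and log2 of CPM plus 5. The TMM alternative used edgeR 4.0.16. Ratios and their intervals were run on counts simulated with counting error alone, which hold no variation between cells, mice or libraries. All members were named, and other genes came from 10 lists of 78 genes in total. The members and lists were chosen with earlier results of these data known. Sex-matched and Ptprc-free values were added after seeing the data. With 1 library per condition there was no test between conditions. Kept UMIs per library, 53564928 to 107887022, set the counting precision.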

Additional observations from a re-analysis of the deposited data

Results flagged for a closer look

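Areg over whole libraries moved in opposite directions in the 2 sorts, and the difference was not tested. At 7 dpi the log2 ratio to the uninjured library was -1.43 for Gli1+ cells, while Gli1- cells gave 5.47 (3.90 to 7.75), and at 21 dpi it was -2.49 and 6.21 (4.65 to 8.49). Without the Ptprc clusters the Gli1+ ratios turned to 2.38 and 1.32, so that both sorts then moved the same way. In cells with Y-linked UMIs alone the Gli1+ ratio turned to 0.99 at 7 dpi. The Gli1+ library of 21 dpi held 11 such cells, so that value covers 7 dpi only. In the uninjured Gli1+ library 525 of the 1061 such cells were mesenchymal-like, against 1372 of the 4847 with Xist alone. That value therefore does not separate sex from the mix of cell classes. The uninjured Gli1- library held 3 Areg UMIs, and 75.6% of the Areg UMIs of the uninjured Gli1+ library lay in T cell-like cells. Neither 1 library per condition nor pooled mice give a spread for these values.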

How the results depend on the processing

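The counts of members past 2-fold moved as follows. The share of all genes was not counted under these settings, except without the Ptprc clusters. The counts therefore do not show whether members moved apart from all genes. Gli1+ mesenchymal-like cells at 7 dpi had 3 lower, which became 1 with TMM, with median-of-ratios or with Leiden resolution 1.0, 0 with cells chosen by markers without clusters, and 5 at 1.5-fold. At 21 dpi the 0 lower became 1 with all deposited barcodes or Leiden resolution 1.0, and 5 at 1.5-fold. Gli1- mesenchymal-like cells at 21 dpi had 2 lower, which became 1 with TMM, median-of-ratios, cells thinned to 2000 UMIs or the mean over cells, and 4 at 1.5-fold. Whole Gli1- libraries at 7 dpi had 3 lower, which became 1 under those same 4 settings and 5 at 1.5-fold, and at 21 dpi the 1 became 4 at 1.5-fold. Whole Gli1+ libraries at 21 dpi had 3 lower, and 0 without the Ptprc clusters. Between sorts at 7 dpi, the 1 higher became 2 with cells chosen by markers. The rest of the counts rerun (members lower over time, members higher between sorts) stayed within 1.5 times under these settings. Counts of members higher over time were not rerun, but single ratios passed 2-fold with TMM at 21 dpi in Gli1+ cells, where Nr4a2 went from 0.73 to 1.18 and Dusp1 from 0.76 to 1.20 in mesenchymal-like cells, and Gem from 0.94 to 1.34 and Dusp1 from 0.86 to 1.26 in whole libraries. Nr4a2 in whole Gli1- libraries at 7 dpi fell from 1.07 to 0.47 with all deposited barcodes, 0.53 with the mean over cells, 0.68 with thinned cells and 0.98 with likely doublets kept, and Areg in Gli1+ mesenchymal-like cells at 7 dpi from 1.80 to 0.70 with all deposited barcodes. Areg in whole Gli1+ libraries reversed without the Ptprc clusters, from -1.43 to 2.38 at 7 dpi and from -2.49 to 1.32 at 21 dpi. In cells with Y-linked UMIs alone it reversed to 0.99 at 7 dpi, a value that covers that time only and does not separate sex from cell class. Leaving out shared barcodes moved no log2 ratio by more than 0.0573. With genes of at least 1 CPM or at least 1 UMI in place of 10 CPM, the background of Gli1+ mesenchymal-like cells at 7 dpi rose from 16.1% to 21.5% and 26.2%. Thinned cells gave no Areg ratio in 3 comparisons, where the uninjured Gli1- cells held 0 UMIs. No paired analysis was possible because no result comes from a test and the groups compared share 1 replicate number. No library was left out, as each condition has 1. Depth limits Areg most.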
